A study of Mus musculus with 17 samples.

Results

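Genes of the interstitial cells of Cajal, which pace the gut, and of PDGFRA-positive, fibroblast-like cells were measured by RNA sequencing in the mouse colon. The set was named gene by gene as Ano1, Kit, Kitl, Etv1, Pdgfra, P2ry1, Prkg1, Gja1 and Cd34, and its members are the entries of the count table with exactly these symbols. All 9 were found, each once, among 23719 entries, and all 9 passed the filter on low counts that left 14146 genes for testing. The mice were C57BL/6 males aged 32 to 34 weeks. Colons of 9 Control mice, which drank water, were compared with colons of 8 GWI mice. The GWI mice, a model of Gulf War illness, drank water with pyridostigmine bromide, which blocks acetylcholinesterase reversibly, at 2 mg/kg for 7 days and then 21 days without it, and tissue was collected at day 30. The comparison asks whether pacemaker and fibroblast-like cell transcripts differed weeks after the exposure ended. Total counts ranged from 16744096 to 20741212 in the Control mice and from 16293537 to 18389686 in the GWI mice, and the lowest count of any member in any mouse was 92, for Prkg1.

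Interstitial cells of Cajal (ICC) lie between the muscle layers of the gut and within them, and generate the slow waves that pace smooth muscle. Calcium released from internal stores opens the chloride channel ANO1 in these cells, and their survival depends on the receptor tyrosine kinase KIT and its ligand, stem cell factor (Kitl). PDGFRA-positive cells answer the purines released by inhibitory motor neurons through the receptor P2RY1, while nitric oxide acts through guanylyl cyclase and the cyclic GMP-dependent kinase PRKG1 in ICC and muscle. Connexin 43, encoded by Gja1, forms gap junctions, and CD34 is a surface sialomucin of fibroblast-like cells and of endothelium.

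Some Control libraries stood apart before any group was compared, and the names of several mice share a first part that the sources do not define and that was not modelled. Levels are in CPM, counts divided by the library size after scaling by the trimmed mean of M values (TMM). Control 1 had the highest summed level of 6 crypt-base secretory cell markers, 8397 CPM against 2502 to 5375 CPM in the other 16 mice. Control 6 and Control 7 carried the ileal bile acid-binding protein Fabp6 at 118.6 and 314.3 CPM, where the other 15 mice had 0.631 to 6.90 CPM. Control 9 had a TMM factor of 0.799, with 0.941 to 1.11 in the other 16 mice, and its 10 most abundant genes took 23.1% of its counts. The comparison was repeated without these 4 mice, an alternative chosen after seeing the data.

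Of the 9 members, 2 were lower in GWI colons and 0 were higher at an adjusted p under 0.05 (quasi-likelihood test of edgeR, Benjamini-Hochberg adjusted over all 14146 genes). The 2 are Prkg1 and Gja1. Among all tested genes 13.5% were called lower, 13.4% higher and 26.8% in either direction, so with 9 genes the count of 2 is no result about the list. The median log2 fold change was −0.41 over the members and −0.06 over all tested genes. The member median is the value of Ano1, which rested on Control 1. With a smooth muscle marker score as a covariate the member median was −0.21, the value of Pdgfra. At an unadjusted p under 0.05, 4 members passed, each with a negative fold change, where 22.1% of all tested genes passed with a negative fold change and 41.4% in either direction. DESeq2 and limma-voom also called 0 members higher, and called 4 and 5 lower, where their shares of all tested genes called lower were 14.8% (2408 genes) and 29.5% (4175 genes). In 0 of the 9 members did the Control and GWI mice form groups without overlap, against 2.35% of all tested genes. With upper-quartile factors the genome-wide split moved from 1889 higher and 1903 lower genes to 1214 higher and 2992 lower, and 4 members were lower, with 21.2% of all tested genes called lower.

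Prkg1, the kinase that nitric oxide activates through cyclic GMP, was lower in GWI colons. Its level was 4.88 CPM in the lowest Control mouse, 12.4 CPM at the median and 30.3 CPM in the highest, and 4.79, 5.85 and 12.1 CPM in the GWI mice. The log2 fold change was −0.98 (SE 0.30, 95% confidence interval −1.60 to −0.35; adjusted p = 0.0226, quasi-likelihood test of edgeR, Benjamini-Hochberg adjusted). All 8 GWI mice lay below the Control median and 5 of 9 Control mice lay above every GWI mouse, but the groups overlapped. Control 3, Control 5, Control 7 and Control 8 lay inside the GWI range, and Control 8 at 4.88 CPM was below all but the lowest GWI mouse. No omission of a single mouse, in 17 fits, lost the call (adjusted p 0.00886 to 0.0463). Without Control mice 1, 6, 7 and 9 the log2 fold change was −0.61 and the adjusted p = 0.0900, so the call was lost. It was also lost with a block on the replicate number and with the smooth muscle score, whose values are given below. The replicate numbers did not pair the mice, and the fit with the block also leaves out Control 9, here and for every list. In bulk tissue, fewer cells of a type and less RNA in each cell cannot be told apart, here or for any other gene.

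Gja1, which encodes the gap junction protein connexin 43, differed less in size but more evenly among mice. The Control mice had 25.6 CPM at the lowest, 34.2 CPM at the median and 41.5 CPM at the highest, and the GWI mice 16.6, 23.6 and 31.3 CPM. Its log2 fold change was −0.51 (SE 0.14, 95% confidence interval −0.79 to −0.22; adjusted p = 0.0126, quasi-likelihood test of edgeR, Benjamini-Hochberg adjusted). Of the 8 GWI mice, 6 were below every Control mouse and all 8 were below the Control median, with GWI 1 and GWI 8 inside the Control range. Its call was kept in all 17 fits with a mouse omitted (adjusted p 0.00573 to 0.0286), and also without the 4 Control mice that stand apart (−0.49, adjusted p = 0.0220).

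**Figure D1:**
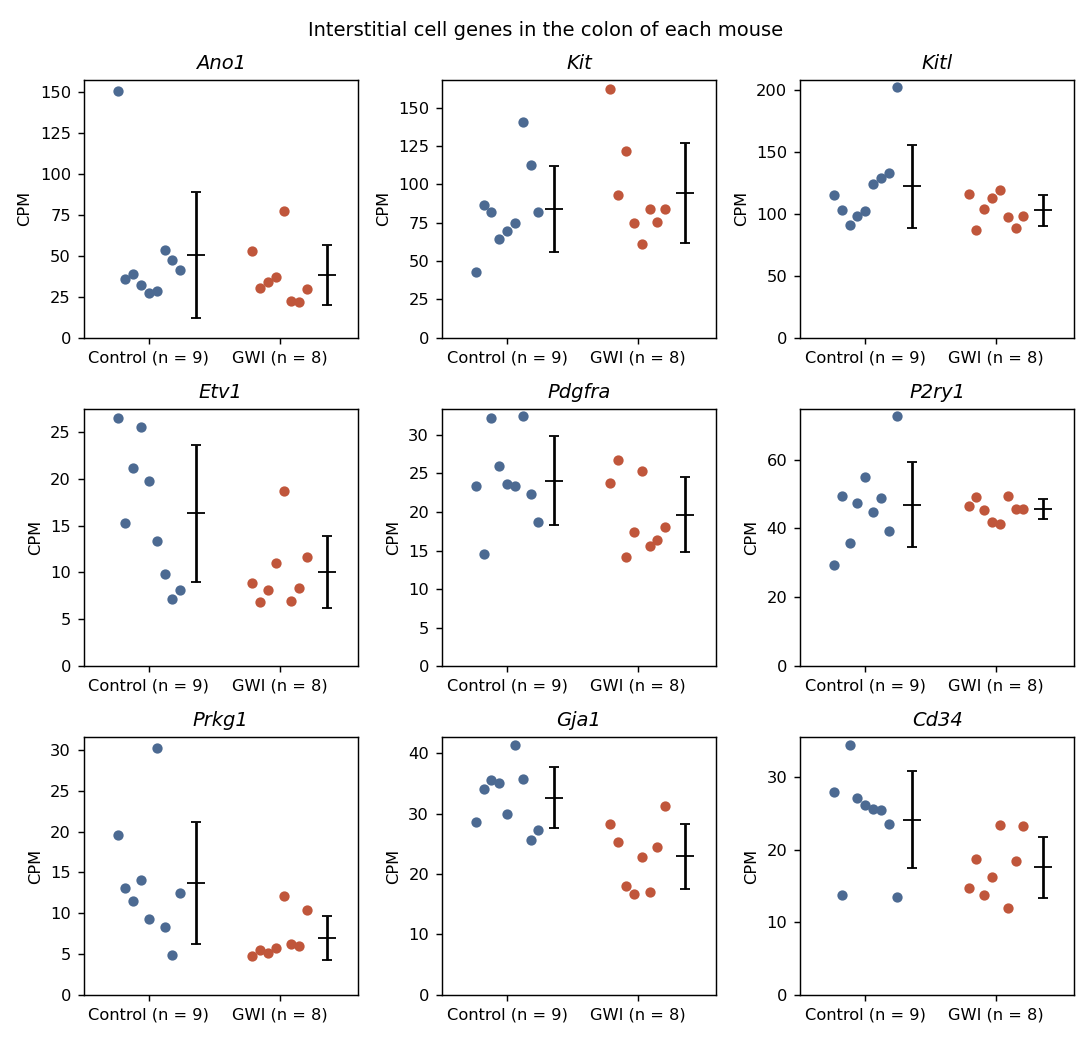
Level of each of the 9 member genes in CPM (vertical axes, each from 0) in the 9 Control and 8 GWI mice, 1 point per mouse in the order of the replicate numbers, with the mean and SD beside each group. The groups overlap in all 9 panels, 6 of 8 GWI mice are below every Control mouse for Gja1, and Control 1 stands alone for Ano1 at 150.2 CPM.

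The 10 smooth muscle markers were summed in each mouse, and the sum ran from 3690 to 23923 CPM with a median of 11584 CPM in Control mice and from 3658 to 11832 CPM with a median of 5142 CPM in GWI mice. All 10 were tested, 7 were lower and 0 higher (10 and 0 at an unadjusted p), and none was at 0 in any mouse. Over the 17 fits with 1 mouse left out the list median stayed negative, from −0.76 without Control 6 to −1.20 without GWI 5. Of all tested genes 13.5% were called lower with all mice, 11.4% without Control 6 and 9.41% without GWI 3. The count of 7 changed when any of several mice was left out. It was 2 without Control 6 or GWI 3, 4, 6 or 7, 3 without Control 1, 2, 3, 4 or 5 or GWI 1 or 2, 9 without Control 8 or Control 9 and 10 without GWI 5. It was also 2 without Control 6 and Control 7 together, 3 with the replicate block or with no filter, 9 by DESeq2 and 10 by limma-voom. DESeq2 called 14.8% and limma-voom 29.5% of all tested genes lower. The most abundant was the muscle myosin heavy chain Myh11 (log2 fold change −1.10, SE 0.38, adjusted p = 0.0407). Among the 17 fits with a mouse omitted, its call was kept only without Control 7, 8 or 9 or GWI 5 or 8, with an adjusted p up to 0.0896 without Control 6. It was also called without the 4 Control mice that stand apart (−0.91, adjusted p = 0.0327). The transgelin gene Tagln (−1.17, adjusted p = 0.00628) and the myosin light chain kinase gene Mylk (−0.91, adjusted p = 0.0150) held their calls in all 17. The actin-binding protein gene Synpo2 (−1.06, adjusted p = 0.0274) lost its call without Control 6, GWI 3, GWI 4, GWI 6 or GWI 7 (up to 0.0580). Synpo2 was not called without the 4 Control mice that stand apart either (−0.63, adjusted p = 0.103). Of the Control mice, 4 had sums above every GWI mouse, while Control 7, Control 8 and Control 9 had 6790, 4702 and 3690 CPM, inside the GWI range.

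With the smooth muscle marker score as a covariate, neither Prkg1 (log2 fold change −0.39, SE 0.21, adjusted p = 0.151) nor Gja1 (−0.35, SE 0.14, adjusted p = 0.0549) passed the threshold. Kitl passed it in that fit (−0.37, SE 0.13, adjusted p = 0.0357), and the Kit value changed sign to −0.16 (adjusted p = 0.570). The 95% confidence intervals with the covariate were −0.83 to 0.05 for Prkg1 and −0.65 to −0.06 for Gja1. Whether the muscle content of the pieces taken had a part in the group differences was not tested, since the score and the group move together.

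**Figure D2:**
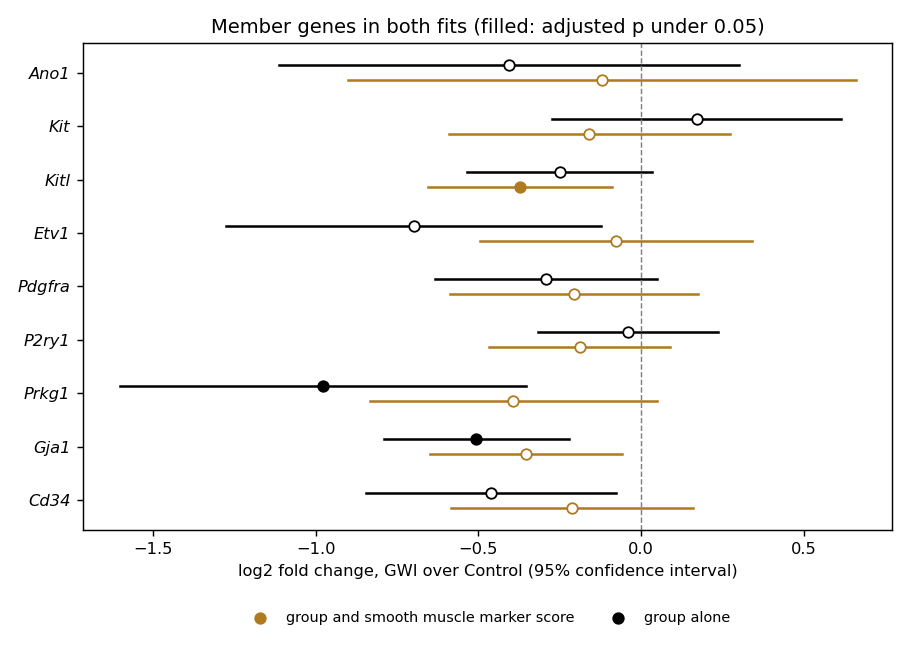
Log2 fold change of GWI over Control mice (horizontal axis) with its 95% confidence interval for each member, in the fit with the group alone (black) and with the smooth muscle marker score added (ochre), where filled points have an adjusted p under 0.05. Prkg1 and Gja1 are filled in the first fit and Kitl in the second, and the Etv1 value goes from −0.70 to −0.08.

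None of the 4 ICC members was called by edgeR in the fit of all mice with the group alone and TMM factors. In that fit 1 had an unadjusted p under 0.05, while DESeq2 and limma-voom each called 1 lower. That gene is Etv1, a transcription factor of ICC. Its level was 7.16, 15.3 and 26.5 CPM at the lowest, median and highest Control mouse and 6.80, 8.57 and 18.7 CPM in GWI mice (log2 fold change −0.70, SE 0.27, 95% confidence interval −1.27 to −0.12, adjusted p = 0.0654). The Control mice themselves were uneven: Control 1, 3, 4 and 5 were above every GWI mouse and Control 7, 8 and 9 at 9.82, 7.16 and 8.16 CPM lay among them. Etv1 was called lower without Control 8 (adjusted p = 0.0307), without Control 9 (adjusted p = 0.0323) and without GWI 5 (adjusted p = 0.0214), the GWI mouse with the highest Etv1 and the highest muscle sum. It was also called lower by DESeq2 (−0.70, adjusted p = 0.0389), by limma-voom (−1.06, adjusted p = 0.000266), with upper-quartile factors (adjusted p = 0.0386), with the small intestine score (adjusted p = 0.0156) and without the 4 Control mice that stand apart (−0.84, adjusted p = 0.0312). Over all alternatives its adjusted p ran up to 0.778, with the smooth muscle score.

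Kit, the receptor of stem cell factor, ranged from 42.9 to 141 CPM with a median of 82.0 CPM in Control mice and from 60.9 to 162 CPM with a median of 84.1 CPM in GWI mice. Its log2 fold change of 0.17 (SE 0.21, adjusted p = 0.557) has a 95% confidence interval of −0.27 to 0.62. The medians were close and the groups overlapped over most of their range, with Control 1 lowest and GWI 1 highest. The value was 0.015 without GWI 1 (adjusted p = 0.962) and 0.30 without Control 7 (adjusted p = 0.265). Kitl, its ligand, had 91.0, 115 and 202 CPM at the lowest, median and highest Control mouse and 86.7, 101 and 119 CPM in GWI mice (−0.25, SE 0.14, 95% confidence interval −0.53 to 0.03, adjusted p = 0.171). Control 9 alone reached the 202 CPM, and the next Control mouse had 132.8 CPM. Without Control 9 the Kitl value was −0.12 (adjusted p = 0.351), and without the 4 Control mice that stand apart −0.051 (adjusted p = 0.720).

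Ano1, the calcium-activated chloride channel of the pacemaker current, had a fold change that rested on 1 library. Control mice had 27.4 CPM at the lowest, 38.8 CPM at the median and 150.2 CPM at the highest, and GWI mice 21.6, 32.1 and 76.9 CPM, for a log2 fold change of −0.41 (SE 0.34, 95% confidence interval −1.11 to 0.30, adjusted p = 0.371). The highest value is Control 1, and without that mouse the log2 fold change was 0.012 (adjusted p = 0.972). The next Control mouse had 53.48 CPM, and 6 of 8 GWI mice lay below the Control median.

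Among the members of PDGFRA-positive and CD34-positive cells, Cd34 was nearest to the threshold. The Control mice had 13.5, 25.6 and 34.4 CPM at the lowest, median and highest and the GWI mice 11.98, 17.4 and 23.5 CPM (log2 fold change −0.46, SE 0.18, 95% confidence interval −0.84 to −0.08, adjusted p = 0.0683). Of the Control mice, 7 of 9 were above every GWI mouse, and the other two, Control 2 and Control 9, were among the lowest of all. Cd34 was called lower without Control 2 (adjusted p = 0.0298), Control 9 (adjusted p = 0.0201), GWI 5 (adjusted p = 0.0435) or GWI 8 (adjusted p = 0.0467). It was also called lower by DESeq2 (adjusted p = 0.0479), by limma-voom (−0.65, adjusted p = 0.00188) and with upper-quartile factors (adjusted p = 0.0348), and its adjusted p ran up to 0.361, with the smooth muscle score.

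Pdgfra, the receptor that names the cells, had 14.5, 23.4 and 32.5 CPM at the lowest, median and highest Control mouse and 14.2, 17.7 and 26.7 CPM in GWI mice (log2 fold change −0.29, SE 0.16, 95% confidence interval −0.63 to 0.05, adjusted p = 0.184). Control 2 at 14.5 CPM was below every GWI mouse but the lowest, and 5 of 8 GWI mice were below the Control median. Of the other fits, limma-voom alone called Pdgfra lower (−0.41, adjusted p = 0.0274). P2ry1, the receptor through which purines reach these cells, had 29.4, 47.2 and 72.6 CPM at the lowest, median and highest Control mouse and 41.2, 45.6 and 49.5 CPM in GWI mice. Its log2 fold change was −0.04 (SE 0.13, 95% confidence interval −0.32 to 0.24, adjusted p = 0.839), and every GWI mouse lay inside the Control range. The value was positive without Control 5 (0.0015) and without Control 9 (0.070), with an adjusted p of 0.995 and 0.622.

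Levels of different genes were compared per kilobase of exon, from the GENCODE M21 annotation of GRCm38. In Control mice Kitl was highest at 20.7 ± 5.66 CPM per kb (SD, n = 9), followed by P2ry1 at 10.9 ± 2.88, Kit at 9.42 ± 3.17 and Ano1 at 8.08 ± 6.14. Those last levels, from P2ry1 to Ano1, do not differ beyond their spread. Cd34 at 3.31 ± 0.919, Gja1 at 3.18 ± 0.49 and Pdgfra at 2.40 ± 0.574 CPM per kb formed the next step, again within their spread of each other, and Prkg1 at 1.26 ± 0.684 and Etv1 at 1.23 ± 0.549 were lowest. The GWI mice had Kitl at 17.4 ± 2.07 CPM per kb (SD, n = 8) and Prkg1 and Etv1 lowest, at 0.641 ± 0.251 and 0.756 ± 0.292.

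The members lie on 7 autosomes of GRCm38. Kit (5:75574916-75656722, plus strand) and Pdgfra (5:75152292-75198215, plus strand) are neighbours on chromosome 5. Kitl (10:100015630-100100416, plus strand) and Gja1 (10:56377330-56402513, plus strand) share chromosome 10 at a distance. Prkg1 spans 19:30564489-31765033 on the minus strand and Ano1 lies at 7:144588549-144751974 on the minus strand. Etv1 is at 12:38779380-38870484, P2ry1 at 3:61002795-61008982 and Cd34 at 1:194938819-194961279, all on the plus strand. An antisense transcript, Gm37035, shares 992 bases or 23.1% of the exon length of P2ry1, and Gm42802 and Gm16897 share 4.55% of Pdgfra and 2.03% of Cd34. The strand setting of the counting is not given in the sources used here, so reads of these 3 genes and of their antisense partners cannot be told apart.

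Members were also compared by how their levels varied from mouse to mouse once the mean of each group had been taken out, as a description over 17 libraries that share depth and composition within each mouse. The ICC members did not vary as 1 block. Kit and Etv1 ran in opposite directions (Pearson r = −0.66 over 17 mice), Kit and Ano1 had r = −0.19, and Ano1 and Etv1 had r = 0.34. Of the 36 pairs of members, Pdgfra and Cd34 were most alike (r = 0.71), while P2ry1 had r = −0.26 with Pdgfra and r = −0.59 with Cd34.

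The genes most like Kit over the 17 mice were the proglucagon gene Gcg and the water channel gene Aqp1 (r = 0.97 for both). Those most like Ano1 were Insl5, which encodes a peptide hormone of the colon, and Nxpe4 (both r = 0.93), and those most like Etv1 were the junctophilin gene Jph4 and the neuronal nitric oxide synthase gene Nos1 (both r = 0.97). Prkg1 was most like Ptn (r = 0.97) and Rgs7bp (r = 0.95), and Gja1 most like S1pr1 (r = 0.88) and Pik3ip1 (r = 0.85). Kitl was most like Ric8b (r = 0.94) and Scai (r = 0.92), Pdgfra most like Igsf10 and Flt1 (both r = 0.86), and Cd34 most like Arhgef15 (r = 0.88) and Mrc2 (r = 0.87). For P2ry1 these were Yipf4 (r = 0.91) and Aamdc (r = 0.90), the latter with r = 0.95 in the Control mice and 0.04 in the GWI mice.

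Around the called member Prkg1, the nitric oxide and cyclic GMP list had 12 of its 13 genes tested, of which 5 were lower and 0 higher (7 and 0 at an unadjusted p), with a median log2 fold change of −0.54 against −0.06 for all tested genes. The list median was −0.29 without the 4 Control mice that stand apart. Both main subunits of soluble guanylyl cyclase, the nitric oxide receptor, fell. Gucy1a1 was at 39.9 ± 14.7 CPM in Control and 22.6 ± 6.31 CPM in GWI mice (SD, n = 9 and n = 8; log2 fold change −0.82, SE 0.22, adjusted p = 0.0116), and Gucy1b1 at 33.2 ± 10.9 and 18.5 ± 7.04 CPM (−0.85, SE 0.23, adjusted p = 0.0140). Phospholamban (Pln), the brake on the sarcoplasmic calcium pump, was lower as well (−0.98, SE 0.27, adjusted p = 0.0134), and so, by less, was the large-conductance potassium channel gene Kcnma1 (−0.55, SE 0.18, adjusted p = 0.0305). The ranges of both groups overlapped for each of these genes. The most abundant gene of the list, the actin regulator Vasp, was not called (0.25, adjusted p = 0.216). Of the 5 calls, 3 held in each of the 17 fits with 1 mouse left out, and Kcnma1 lost its own without Control 6, GWI 2, GWI 6 or GWI 7 (adjusted p up to 0.0644, without GWI 7). The count of 5 was 3 without Control 6 or GWI 2, 6 or 7, 7 without Control 8 or with upper-quartile factors, 3 with the replicate block or without Control 6 and Control 7 together, and 10 with limma-voom. Of all tested genes 13.5% were called lower with the group alone and TMM factors, 21.2% with upper-quartile factors and 29.5% with limma-voom. With the smooth muscle score as a covariate 1 gene of this list was lower and 1 higher, with a median of −0.076. The lower gene was Pln (−0.49, adjusted p = 0.0344) and the higher was Vasp (0.56, adjusted p = 0.00241). The values for Gucy1a1 and Gucy1b1 were −0.31 (adjusted p = 0.0772) and −0.33 (adjusted p = 0.0718).

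Connexins other than Gja1 had 6 of 7 genes tested, with 2 lower and 1 higher and a median of −0.23, which was 0.031 without Control 6, 0.022 with limma-voom, 0.070 without the 4 Control mice and 0.042 without Control 6 and Control 7. With library size alone, upper-quartile factors, the replicate block or the smooth muscle score, and without the 4 Control mice, 0 were higher, and with the block or the smooth muscle score 1 was lower. Connexin 45 (Gjc1), found in smooth muscle and ICC, fell from 13.7 ± 5.52 CPM in Control to 6.81 ± 2.95 CPM in GWI mice (log2 fold change −1.01, SE 0.26, adjusted p = 0.0110), and connexin 37 (Gja4), of vessels, had a log2 fold change of −0.90 (SE 0.23, adjusted p = 0.00995). The epithelial connexin 26 gene Gjb2 was higher (0.57, SE 0.19, adjusted p = 0.0338), a call lost without Control 4, Control 6, GWI 1, GWI 2, GWI 3 or GWI 6 (adjusted p up to 0.0773, without GWI 6). The most abundant of them, Gjb1, was not called (0.21, adjusted p = 0.437).

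The other genes of PDGFRA-positive cells had 10 of 11 tested, 3 lower and 0 higher (4 and 0 at an unadjusted p), with a median of −0.31. Kcnn3, the small-conductance potassium channel that P2RY1 signalling opens in these cells, was at 14.04 ± 4.69 CPM in Control and 7.57 ± 3.02 CPM in GWI mice (log2 fold change −0.89, SE 0.24, adjusted p = 0.0138). That call held in each of the 17 fits with 1 mouse left out, and without the 4 Control mice that stand apart (−0.94, adjusted p = 0.0166). Its relative Kcnn2 (−0.95, SE 0.32, adjusted p = 0.0372) and the tissue factor gene F3 (−0.30, SE 0.11, adjusted p = 0.0474) were less firm. Kcnn2 lost its call without Control 2, 4 or 6 or GWI 1, 3, 4, 6 or 7 (adjusted p up to 0.0803, without Control 6). Among the 17 fits with 1 mouse left out, F3 kept its call only without Control 3, Control 5 or GWI 5 (adjusted p up to 0.0886, without GWI 4). The list count of 3 was 1 without Control 6 or GWI 1, 3, 4, 6 or 7, with the replicate block, with the smooth muscle score, without the 4 Control mice and without Control 6 and Control 7, and 2 without Control 2, 4, 7, 8 or 9 or GWI 8. The list median was −0.56 over the 8 genes with at least 10 counts in all mice. With the muscle covariate Kcnn3 was at −0.37 (adjusted p = 0.0720), Kcnn2 at −0.18 (adjusted p = 0.610) and F3 at −0.25 (adjusted p = 0.105). The 1 gene called lower in that fit was Gli1 (−1.02, adjusted p = 0.0113, named after its values were seen). Gli1 was not called with the group alone (−0.78, adjusted p = 0.0532). The most abundant gene, the BMP antagonist Grem1, was not called (−0.85, SE 0.56, adjusted p = 0.256).

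In the list for CD34-positive fibroblasts all 8 genes were tested, 2 were lower and 0 higher (4 and 0 at an unadjusted p), and the median was −0.38. Upper-quartile factors gave 4 lower and limma-voom 6. Of all tested genes 13.5% were called lower with the group alone and TMM factors, 21.2% with upper-quartile factors and 29.5% with limma-voom. Dermatopontin (Dpt), the most abundant, was at 168 ± 59.2 CPM in Control and 99.3 ± 27.1 CPM in GWI mice (log2 fold change −0.76, SE 0.21, adjusted p = 0.0148), and decorin (Dcn) at 145 ± 40.3 and 86.1 ± 28.5 CPM (−0.75, SE 0.20, adjusted p = 0.0119). Both held in each of the 17 fits with 1 mouse left out, and without the 4 Control mice. With the muscle covariate their values were −0.31 (adjusted p = 0.113) and −0.36 (adjusted p = 0.0542), and the list had a median of −0.051, 0 lower and 1 higher, Col1a1 (1.13, adjusted p = 0.00184, named after its values were seen), which was not called with the group alone (0.27, adjusted p = 0.578). The 11 endothelial markers, which bear on Cd34, had 5 lower and 0 higher (6 and 0 at an unadjusted p) with a median of −0.49 and a sum of 65.6 to 267 CPM in Control and 86.6 to 188 CPM in GWI mice. The count of 5 fell to 2 without Control 6 or GWI 3, 4 or 6 and without Control 6 and Control 7 together, was 3 without Control 3 or Control 4, and was 7 without Control 9. With the smooth muscle score it was 2, with a median of −0.091, and with limma-voom 9. Among them Emcn (−0.80, adjusted p = 0.00468) and Erg (−0.74, adjusted p = 0.00481) held in all 17 fits. Kdr (−0.74, adjusted p = 0.0283) lost its call without Control 6, GWI 3, GWI 4 or GWI 6 (up to 0.0588), and Tie1 (−0.83, adjusted p = 0.0341) without Control 3, 4 or 6 or GWI 1, 3, 4, 6 or 7 (up to 0.0707). The most abundant, Pecam1, was not called (−0.29, adjusted p = 0.347). No endothelial marker was at 0 in any mouse, and the part of vessels in the Cd34 value was not tested.

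Other ICC genes, such as Gpr20 and Hcn4, gave 1 call among 9 tested genes and a median of −0.12. It was the neurokinin receptor gene Tacr1 (log2 fold change −0.999, SE 0.32, adjusted p = 0.0305), at 4.61 ± 2.71 CPM in Control and 2.31 ± 0.710 CPM in GWI mice, and it was lost without Control 1, 4, 5 or 6 or GWI 1, 3, 6 or 7 (adjusted p up to 0.0623, without GWI 7). The list had 2 lower without Control 7 or GWI 8, and 3 without Control 8, Control 9 or GWI 5 and by DESeq2, limma-voom (with 1 higher) and upper-quartile factors. Its median had no settled sign. It was 0.069 without Control 1, −0.0033 without GWI 1 and −0.38 without GWI 5, the extremes of the 17 fits being the first and the last, and 0.0086 with limma-voom and 0.10 with the smooth muscle score. The replicate block gave 0 calls. The most abundant of the 9, the chloride-loading cotransporter Slc12a2, which colon epithelium also expresses, was not called with the group alone (−0.36, adjusted p = 0.370). With the smooth muscle score Tacr1 was at −0.13 (adjusted p = 0.652), and the 1 gene called lower was Slc12a2 (−0.81, adjusted p = 0.00362). Gpr20 and Hcn4, named after their values were seen, were at 0.31 (adjusted p = 0.139) and 0.01 (adjusted p = 0.986).

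Of the 13 genes that carry the KIT signal, all were tested, 3 were higher, 0 lower and 10 not called (6 higher and 1 lower at an unadjusted p), with a median of 0.17. Upper-quartile factors gave 1 higher and 1 lower, with a median of 0.073, library size alone 2 higher and 1 lower, DESeq2 4 higher and 1 lower, limma-voom 7 higher and 1 lower, and the fit without the 4 Control mice 5 higher. Of all tested genes 13.4% were called higher with the group alone and TMM factors, 27.6% with limma-voom and 18.2% without the 4 Control mice. Leaving out 1 mouse gave 2 to 5 higher, with 5 without Control 1 or Control 9, and the smooth muscle score gave 4 higher and 0 lower. The ubiquitin ligase gene Cbl was at 51.6 ± 12.2 CPM in Control and 79.6 ± 11.98 CPM in GWI mice (log2 fold change 0.63, SE 0.13, adjusted p = 0.00341), and the phosphatase gene Ptpn6 had a log2 fold change of 0.42 (SE 0.12, adjusted p = 0.0155). Among the 17 fits with 1 mouse left out, the adaptor gene Grb2 (0.30, SE 0.11, adjusted p = 0.0499) kept its call only without Control 1, Control 2 or Control 9 (adjusted p up to 0.0951, without GWI 3). Grb2 was also called without the 4 Control mice that stand apart (0.21, adjusted p = 0.0335) and with the smooth muscle score (0.48, adjusted p = 0.00299), but under only 1 of 3 other scalings. These genes act behind many receptors and in many cell types. The most abundant, Pik3r1, was not called (−0.12, adjusted p = 0.387).

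Among the 11 genes of calcium handling, 4 were higher and 1 lower, with a median of 0.26, and all 5 calls held in each of the 17 fits with 1 mouse left out. The inositol trisphosphate receptor gene Itpr2 ranged from 21.1 to 38.4 CPM in Control mice and from 46.7 to 69.1 CPM in GWI mice, so that its groups did not overlap (log2 fold change 0.96, SE 0.12, adjusted p = 0.000196). Limma-voom gave 6 higher and 3 lower, and the fit without the 4 Control mice 6 higher and 1 lower. In these fits 27.6% and 18.2% of all tested genes were called higher. With the smooth muscle score the list had 8 higher and 1 lower and a median of 0.61, and its median was 0.17 with upper-quartile factors. Itpr3 rose as well (0.84, SE 0.15, adjusted p = 0.00142), as did the plasma membrane calcium pump gene Atp2b1, the most abundant of the list (0.77, SE 0.17, adjusted p = 0.00505). By contrast Itpr1, the receptor most used in ICC and smooth muscle, was not called (−0.20, SE 0.17, adjusted p = 0.375, named after its value was seen), and the ryanodine receptor gene Ryr3 was lower (−1.09, SE 0.25, adjusted p = 0.00650). Without the 4 Control mice Ryr3 was at −0.59 (adjusted p = 0.0417). The 11 colon epithelial markers had 4 higher and 0 lower (6 and 0 at an unadjusted p) with a median of 0.32, a sum of 26666 to 45402 CPM in Control and 30385 to 48268 CPM in GWI mice, and calls for Cdh1 (0.62, adjusted p = 0.00422) and Vil1 (0.64, adjusted p = 0.0168) that held in all 17 fits, and for Epcam (0.28, adjusted p = 0.0437) and Muc2 (0.51, adjusted p = 0.0465) that were lost in 13 and 11 of them. Among these 17 fits Epcam kept its call only without Control 1, Control 2, Control 9 or GWI 1 (up to 0.0967), and Muc2 only without Control 1, 2, 5 or 7 or GWI 5 or 8 (up to 0.0953). Epcam was also called with the smooth muscle score (0.29, adjusted p = 0.0475). The count of 4 was 2 without Control 3, 4, 6 or 8 or GWI 2, 3, 4, 6 or 7, and 7 without Control 1. It was 2 with library size alone, upper-quartile factors, no filter or the replicate block and without Control 6 and Control 7, 7 with limma-voom and 6 with the smooth muscle score, and Epcam was called under 0 of 3 other scalings. Their most abundant gene, Car1, was not called (−0.06, adjusted p = 0.917). The part of the epithelium in the calcium and KIT signalling values was not tested.

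**Figure D3:**
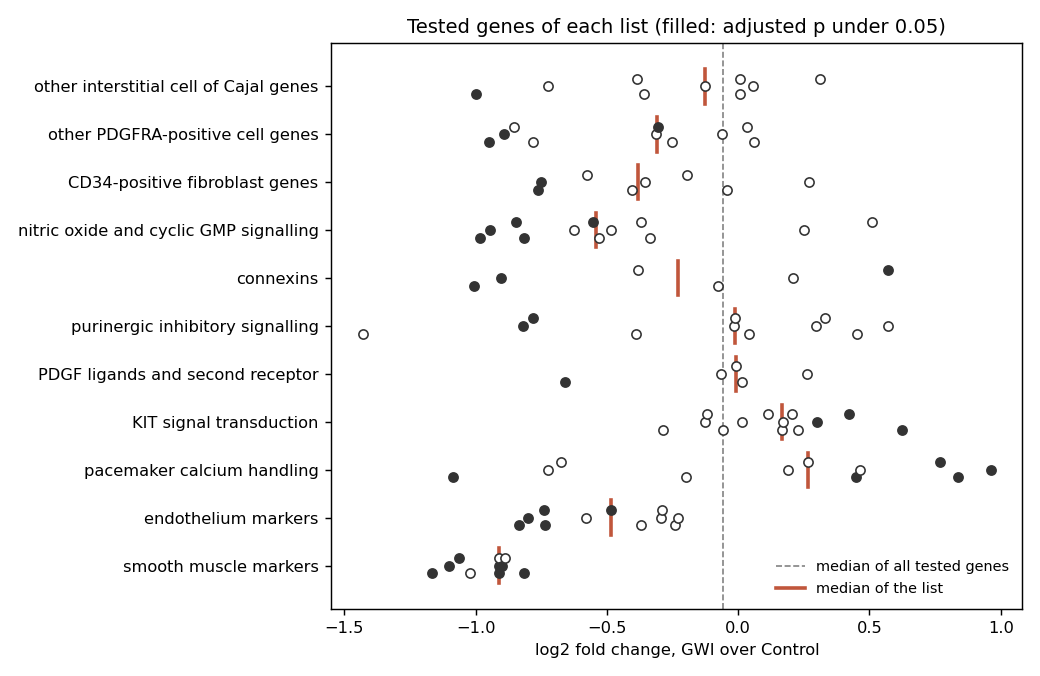
Log2 fold change of GWI over Control mice (horizontal axis) for each tested gene of 11 gene lists, filled where the adjusted p is under 0.05, with the median of each list as an upright bar and the median of all tested genes as a dashed line. The medians run from −0.91 for smooth muscle markers and −0.54 for nitric oxide and cyclic GMP signalling to 0.17 for KIT signal transduction and 0.26 for calcium handling.

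Purinergic signalling had 11 genes tested, 2 lower and 0 higher (3 and 1 at an unadjusted p), and a median of −0.01. They were Entpd1, an enzyme that breaks down extracellular ATP (log2 fold change −0.82, SE 0.22, adjusted p = 0.0122), and the receptor gene P2ry12 (−0.78, SE 0.22, adjusted p = 0.0163), which had only 6 to 34 counts in a mouse. Both held in each of the 17 fits with 1 mouse left out, but the replicate block gave 0 calls in this list. Without Control 1, or without the 4 Control mice, 3 genes were higher, and 1 was without Control 7, Control 8 or GWI 5. The smooth muscle score gave 2 higher and 1 lower, limma-voom 3 higher and 3 lower, and the median lay between −0.049 and 0.034 over the fits with 1 mouse left out. The most abundant gene, P2rx4, was not called (−0.02, adjusted p = 0.921). Of the 5 genes for PDGF ligands and the second receptor, 1 was lower and 0 higher (1 and 0 at an unadjusted p), namely Pdgfd (−0.66, SE 0.20, adjusted p = 0.0230), which was not called without the 4 Control mice (−0.44, adjusted p = 0.0701), without Control 6 and Control 7 (−0.60, adjusted p = 0.0644) or with the replicate block, while the smooth muscle score gave 1 lower and 1 higher. The most abundant ligand gene, Pdgfa, was at −0.01 (adjusted p = 0.982).

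Mast cells also carry KIT, and their markers had few counts. Of 11 mast cell genes only Gata2 passed the filter (log2 fold change −0.31, adjusted p = 0.280), the carboxypeptidase gene Cpa3 was at 0 in 11 of 17 mice with at most 3 counts (named after its values were seen), and all 11 together summed to 2.55 to 3.95 CPM in Control and 2.24 to 4.92 CPM in GWI mice, against 42.9 to 162 CPM of Kit alone. The crypt-base secretory cells of the mouse colon express Kit too. Their 6 markers, led by Fcgbp, had 0 calls by edgeR with the group alone (0 higher and 1 lower at an unadjusted p; DESeq2 called 1 higher, limma-voom 1 higher, and edgeR with upper-quartile factors 1 lower) and a median of −0.31, which was 0.092 with limma-voom. Their sum had a median of 2994 CPM in Control mice (2515 to 8397) and of 3712 CPM in GWI mice (2502 to 4473), with 7 of 8 GWI mice above the Control median. Without the 4 Control mice that stand apart the list median was 0.37, with 2 higher and 0 lower, and without Control 1 alone 1 was higher, while the smooth muscle score gave 1 higher and 3 lower with a median of −0.60, and the median was −0.19 without Control 9, so the direction of this list depends on these choices. Control 1, which had the highest such sum, had the lowest Kit and the highest Ano1 level of the 9 Control mice.

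Neighbouring cell types were read for what else moved with the group. The 8 tested enteric glia markers had 3 lower and 1 higher and a median of −0.86, among them Cdh19 (log2 fold change −1.29, adjusted p = 0.000947), Foxd3 (−1.28, adjusted p = 0.0248) and, higher, the most abundant of them, Erbb3 (0.91, adjusted p = 0.00105), which epithelium also expresses. The count of 3 was 5 without Control 8, Control 9 or GWI 8, without the 4 Control mice, by DESeq2, by limma-voom and with upper-quartile factors, and 2 with the replicate block, and the smooth muscle score gave 2 lower and 2 higher with a median of −0.046. None of 11 enteric neuron markers, led by Uchl1, was called by edgeR with the group alone (0 at an unadjusted p; DESeq2 called 0, limma-voom 10 lower), with a median of −0.58 (−1.03 with limma-voom) and a sum of 85.9 to 601 CPM in Control and 113 to 399 CPM in GWI mice. Limma-voom called 29.5% of all tested genes lower. In edgeR fits 2 of these neuron markers were lower without the 4 Control mice (median −0.81), and 1 was higher with the smooth muscle score, where the median was 0.37. Mesothelial markers, led by Upk1b, had 0 of 5 called by edgeR, at an unadjusted p, by DESeq2 and by limma-voom. Adipocyte markers, led by Fabp4, had a median of 1.08 (0.58 without GWI 7, whose sum of 569.8 CPM was the highest) and 1 of 5 higher, Cidec (0.99, adjusted p = 0.0365), a call lost without Control 2, 3, 6, 7 or 8 or GWI 3, 4, 7 or 8 (adjusted p up to 0.101, without GWI 7), with no filter, with the replicate block and without Control 6 and Control 7. Of 12 small intestine markers 8 were tested, with a median of −0.55, and 1 was lower, Fabp6 (−4.40, adjusted p = 0.00880), whose call was lost without Control 6 and Control 7 (−0.96, adjusted p = 0.0814) but not without the 4 Control mice (−1.05, adjusted p = 0.0445). The median of this list was −0.079 without Control 7 alone, 0.070 without Control 6 and Control 7, 0.0023 without the 4 Control mice and −0.050 with limma-voom, which called 1 higher and 0 lower, as did the replicate block, while DESeq2 called 2 lower, as did edgeR with no filter, and the fit without the 4 Control mice 1 lower and 1 higher. Its most abundant gene, Fabp2, was not called (−0.41, adjusted p = 0.269).

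Promoter windows of 300 bases, from 250 before to 50 after each gene start, came from RefSeq for GRCm38.p6, where all 9 members matched with 12 windows (Kit, Etv1 and Prkg1 have 2 each). The CArG box, the motif of serum response factor in muscle, and the ETS motif CCGGAAGT, of the family ETV1 belongs to, were searched on both strands. Neither motif occurs in the 12 windows, and 1.63% and 3.89% of all 32851 windows hold them, which says only that these letters are not in these stretches. The windows of the called members are shown 5′ to 3′, with the first base of the transcript in capitals, for Gja1 at chr10:56377050-56377349 on the plus strand, with 47.7% G and C, and for Prkg1 at chr19:31764984-31765283 with 55.3% and chr19:31664321-31664620 with 62.3%, both on the minus strand.
Gja1: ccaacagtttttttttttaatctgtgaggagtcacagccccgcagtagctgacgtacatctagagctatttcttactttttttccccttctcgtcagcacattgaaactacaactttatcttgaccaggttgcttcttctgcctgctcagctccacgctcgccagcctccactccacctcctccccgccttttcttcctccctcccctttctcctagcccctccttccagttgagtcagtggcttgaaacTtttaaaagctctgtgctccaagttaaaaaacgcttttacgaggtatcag
Prkg1, upstream start: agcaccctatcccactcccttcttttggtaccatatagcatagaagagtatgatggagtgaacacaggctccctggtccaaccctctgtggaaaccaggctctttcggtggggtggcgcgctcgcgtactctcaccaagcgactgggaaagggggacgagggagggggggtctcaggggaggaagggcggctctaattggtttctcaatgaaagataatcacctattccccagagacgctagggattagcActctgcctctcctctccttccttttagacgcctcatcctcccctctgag
Prkg1, downstream start: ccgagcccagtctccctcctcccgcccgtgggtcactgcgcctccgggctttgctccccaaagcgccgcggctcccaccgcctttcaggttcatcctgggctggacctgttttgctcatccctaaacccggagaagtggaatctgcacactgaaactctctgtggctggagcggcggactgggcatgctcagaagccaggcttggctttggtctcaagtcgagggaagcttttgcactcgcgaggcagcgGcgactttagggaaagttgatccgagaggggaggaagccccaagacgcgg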

How the data were processed

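RNA sequencing of colon tissue from 9 Control and 8 GWI mice was read from the count table of the series. The authors deposited raw counts per gene, made by trimming reads with Trimmomatic 0.36, aligning them to GRCm38 with STAR 2.5.2b and counting with featureCounts; the version of DESeq2 they used, the annotation release and the strand setting are not given. The tissue was frozen colon explant, and libraries were poly(A)-selected and read as 150-base pairs. Mice were grouped by their labels. Genes were kept by edgeR's filterByExpr (minimum count 10, minimum total 15), scaled by TMM and tested with edgeR 4.0.16's robust quasi-likelihood fit in R 4.3.3, GWI against Control, with Benjamini-Hochberg adjustment over all tested genes. A call is an adjusted p under 0.05. Log2 CPM used a prior count of 2. Intervals are 95% confidence intervals from the fit.

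The alternatives were size factors of DESeq2 1.42.0, library size alone, upper-quartile factors, DESeq2's Wald test, limma 3.58.1 voom with sample quality weights, no filter, a minimum of 10 counts in all mice, blocking on replicate number (Control 9, without a GWI mouse of its number, left out), smooth muscle and small intestine marker scores (mean log2 CPM of each list, standardised) as covariates, each mouse left out in turn, and the unadjusted p with an absolute log2 fold change over 1. Leaving out Control 1, 6, 7 and 9 together, or Control 6 and 7, and counting list calls with the muscle score and under the alternatives used for the members, and giving the share of all genes called in each fit and at an unadjusted p, were chosen after seeing the data.

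The members and the lists were chosen with earlier results of these data known. The lists cover other ICC genes, other PDGFRA-positive cell genes, CD34-positive fibroblasts, nitric oxide and cyclic GMP signalling, KIT signal transduction, PDGF ligands and second receptor, calcium handling, purinergic signalling, connexins, and markers of mast cells, endothelium, smooth muscle, colon epithelium, crypt-base secretory cells, small intestine, enteric glia, enteric neurons, mesothelium and adipocytes. Named genes are the members, the most abundant gene of each list, up to 4 called genes per list with the smallest p, and the 2 genes most like each member by Pearson r of log2 CPM. No set test was run. List counts are to be read beside the share of all tested genes called in the same fit. That share was 13.4% higher and 13.5% lower with the group alone and TMM factors, and 27.6% and 29.5% with limma-voom. The pipeline was tested on simulated data with known changes. Its recovery limit was first set for smaller changes, was missed there, and was moved to larger ones. Python 3.11.15 made the tables of positions and promoters.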

Additional observations from a re-analysis of the deposited data

Results flagged for a closer look

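Samples far from the rest of their group were looked for in 24 groups of values, and 5 groups had one, where the nominal rate of the rule gives about 1.2. That rate is for independent, normally distributed values. These were CPM without a log, and Control 1 and GWI 5 recur among them, so the numbers cannot be set against chance. Control 1 had the highest Ano1 level of its group, 150.2 CPM, with 53.48 CPM in the next Control mouse. The same mouse had a summed level of crypt-base secretory cell markers of 8397 CPM, with 5375 CPM in the next. Control 9 had a Kitl level of 202.3 CPM, and the next Control mouse 132.8 CPM.

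GWI 5 stood apart in its own group, with an Etv1 level of 18.67 CPM against 11.65 CPM in the next GWI mouse. Its endothelial markers summed to 188 CPM, and those of the next GWI mouse to 132.3 CPM. The causes of these values were not tested.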

How the results depend on the processing

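Over 29 alternative fits of each of the 9 members, 233 of 261 member values kept their direction and their side of the threshold, 17 passed it that had not (all negative), 4 no longer passed it and 7 changed sign. None of the changed signs passed the threshold. They were Ano1 without Control 1 (0.012) and without the 4 Control mice that stand apart (0.060, an alternative chosen after seeing the data), Kit with the smooth muscle score (−0.16), and P2ry1 with the replicate block (0.091), with the small intestine score (0.018), without Control 5 (0.0015) and without Control 9 (0.070). Over the fits that left out 1 mouse, Ano1 ran from −0.63 to 0.012 and P2ry1 from −0.093 to 0.070.

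The number of members called lower was 2, and it was 4 with upper-quartile factors, 4 with DESeq2's test, 5 with limma-voom, 1 with the replicate block, 1 with the smooth muscle score and 0 under the unadjusted rule with a fold limit. Of all tested genes 13.5% were called lower, and 21.2%, 14.8%, 29.5%, 5.78%, 19.8% and 1.77% under these alternatives, in the same order. Leaving out 1 mouse gave 2 to 4, with 4 without Control 9 or without GWI 5, where 15.8% and 14.5% of all tested genes were lower. The number called higher was 0 in every fit run. Members without overlap between the groups numbered 0 under each alternative tried.

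Genome-wide, 1889 genes were higher and 1903 lower. Upper-quartile factors gave 1214 and 2992, with a median log2 fold change of −0.15 over all genes against −0.06, limma-voom 3901 and 4175, and the unadjusted rule with a fold limit 92 and 250. The smooth muscle score gave 2557 and 2800. The replicate block gave 1404 and 814, in a fit that also leaves out Control 9, which has no GWI mouse of its number, while leaving out Control 9 alone gave 2272 and 2221. Leaving out 1 mouse gave 1472 to 2523 higher and 1309 to 2295 lower. The causes were not tested.

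The replicate numbers did not pair the mice. Of 8 shared numbers, the correlations of the pairs ran from −0.506 to 0.115 and 0 GWI mice were most like the Control mouse of their own number. With the block, Prkg1 was at −0.89 (adjusted p = 0.103) and Gja1 at −0.55 (adjusted p = 0.0488).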
